A study of Homo sapiens with 9 samples.

Results

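Matrix proteases and their inhibitors are described here in the human breast cancer line MDA-MB-231 and in lines of it kept in docetaxel or paclitaxel. The members are a list of 45 genes by name, holding matrix metalloproteinases, ADAM and ADAMTS proteases, plasminogen activators, kallikreins, tissue inhibitors of metalloproteinases, serpins and other inhibitors. All 45 were measured, of 11964 genes in the table, each through the probe set annotated to it with the highest mean over all arrays (17 members had more than 1, and the members had 77 probe sets in all). No level was used to choose them, so every member, high or low, entered the counts below. Earlier results of these data were known when the list was made.

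Each of 3 groups held 3 Affymetrix HU133A arrays, and each array carried RNA of a separate passage. The docetaxel-resistant line grew with 2 nM docetaxel, the paclitaxel-resistant line with 7 nM paclitaxel, and the sensitive cells with neither drug. The sample descriptions give 1 µM verapamil, which blocks calcium channels and the drug pump P-glycoprotein, in all 3 groups, whereas the treatment protocol names it for the sensitive cells only. Both drugs are taxanes, which stabilize microtubules. Each resistance is 1 line, so the p-values measure the spread between passages of that line, and resistance, drug in the medium and selection of the line cannot be told apart.

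Matrix metalloproteinases (MMPs) are zinc enzymes, secreted or anchored in the membrane, that cut collagens and other matrix proteins and are held in check by the tissue inhibitors of metalloproteinases (TIMPs). ADAMs are related membrane proteases that shed the outer part of growth factors and receptors. In the plasminogen cascade, urokinase and tissue-type plasminogen activator turn plasminogen into plasmin, and serpins block such serine proteases. MDA-MB-231 cells invade readily in culture and are a common model for these enzymes.

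The deposited probe set intensities had medians of 33.7 to 43.9 per array, and an intensity of 16 lay above 24.0% to 27.0% of probe sets. Low intensities hold little order, so differences were taken on log2(intensity + 16) after quantile normalization, a scale that understates changes of dim probe sets. Of 7 genes known to be high in this line all 7 were above 16 in every group (summed intensity 9065 to 10476 in docetaxel-resistant, 9910.5 to 10896 in paclitaxel-resistant and 13042 to 15892 in sensitive arrays). VIM and S100A4 were called lower and EGFR higher in both resistant lines. CD44 was called lower in the docetaxel-resistant line and MSN lower in the paclitaxel-resistant line. That is 4 of the 7 in each line (57.1%), where 21.0% and 21.6% of all genes were called. The 6 genes known to be low in MDA-MB-231 summed to 393 to 433, 378 to 423 and 315 to 485, with none called, though ERBB2 averaged 154 to 208 per group. The 9 fibroblast markers summed to 437 to 489, 399 to 469 and 333 to 458 in the same order of groups, and the 7 measured leukocyte markers to 204 to 250.4, 187 to 277 and 216 to 238. The 6 endothelial markers summed to 157 to 177, 133 to 192 and 177 to 294. PDGFRB was called higher and CSF1R and PECAM1 lower in both resistant lines, and their part in the results below was not tested. LUM, COL3A1, PTPRC, SPI1, VWF and CDH5 had means under 16 in every group. In bulk RNA, fewer cells and less RNA per cell cannot be told apart. Docetaxel-resistant replicate 3, paclitaxel-resistant replicate 1 and sensitive replicate 1 deviated from their group means together, with pairwise correlations of 0.337 to 0.474 across genes, which are not independent points. ANXA1, for example, read 612, 566 and 569.9 in those arrays and 159.9 to 202 in the other 6, and each member call that changed without them is given. Other pairs deviated together too, such as docetaxel-resistant replicate 1 and sensitive replicate 2 at 0.435.

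In the docetaxel-resistant line 11 members fell against sensitive cells, 3 rose and 31 did not pass the test. In the paclitaxel-resistant line 12 fell, 2 rose and 31 did not pass. That is 31.1% of the members in each line, where 21.0% and 21.6% of all genes were called. The members were listed with earlier results of these data known, so these shares and those below do not test the family against all genes. The lower calls took in 24.4% and 26.7% of the members against 10.2% and 10.7% of all genes, and the higher calls 6.67% and 4.44% against 10.8% in both. The median log2 difference was -0.16 and -0.18 over the members and -0.05 and -0.02 over all genes. On the normalized values, arrays of the 2 groups did not overlap for 17 members (37.8%) in the docetaxel and 18 (40.0%) in the paclitaxel comparison, shares near the 36.8% and 34.8% of all genes. Overlap of single genes is described below on the deposited intensities, and was the same on both scales for every called member. Among the 24 members at or above the median level of all genes, 45.8% and 50.0% were called, against 33.2% and 34.3% of all genes at that level. The 2 comparisons share the sensitive arrays. The 10 members lower in both were MMP14, TIMP1, TIMP3, ADAM8, PLAT, SERPINE2, SERPINF1, SPINT1, HTRA1 and CST6, and SPINT2 was the 1 higher in both. Adjusted p-values here and below come from limma's moderated test over all genes, with the differences given ± SE (n = 3 arrays per group). Where a pair of differences is given with no line named, the first is docetaxel-resistant and the second paclitaxel-resistant, each minus sensitive.

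**Figure D1:**
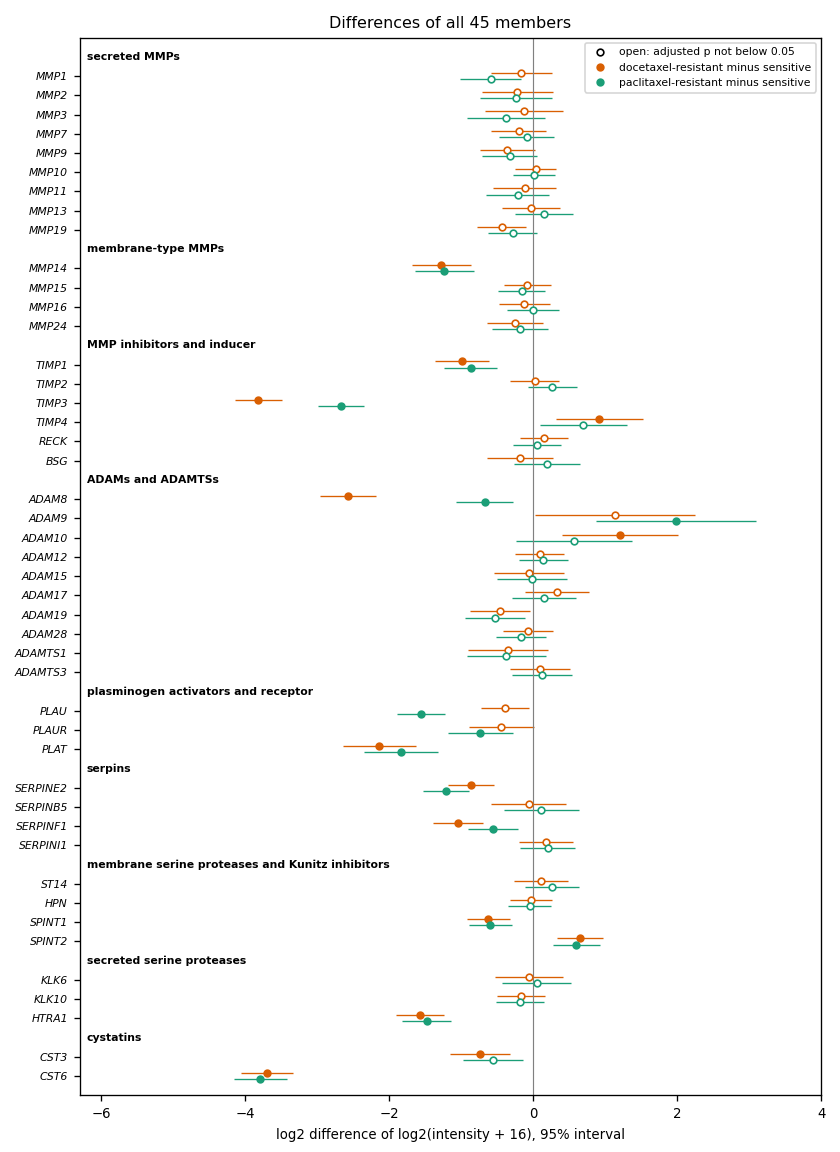
Log2 difference from sensitive cells (x axis, on log2(intensity + 16), with 95% intervals) of all 45 members, in the docetaxel-resistant line (orange, upper of each pair) and the paclitaxel-resistant line (green), grouped by role. Filled points passed the test; TIMP3 and CST6 lie farthest to the left in both lines, and the 9 secreted MMPs all have open points.

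Promoter windows of 4 of these genes are printed because 3 of them (TIMP3, ADAM8 and PLAU) differed between the 2 resistant lines, while HTRA1 fell to like levels in both. The windows run from 250 bases before to 50 after the gene start in RefSeq (GRCh38.p14), 5′ to 3′ on the gene's own strand. Capitals mark SP1 motifs (GGGCGG, either strand). The TIMP3 window is chr22:32801455-32801754 on the plus strand, that of ADAM8 chr10:133276819-133277118 on the minus strand, that of PLAU chr10:73910360-73910659 and that of HTRA1 chr10:122461303-122461602, both on the plus strand.
TIMP3: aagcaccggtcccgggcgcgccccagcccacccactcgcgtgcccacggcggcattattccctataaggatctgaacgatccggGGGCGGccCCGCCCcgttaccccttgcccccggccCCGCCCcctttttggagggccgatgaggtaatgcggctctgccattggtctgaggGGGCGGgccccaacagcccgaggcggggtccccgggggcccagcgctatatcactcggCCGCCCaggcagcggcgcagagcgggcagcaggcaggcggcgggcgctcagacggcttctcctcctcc
ADAM8: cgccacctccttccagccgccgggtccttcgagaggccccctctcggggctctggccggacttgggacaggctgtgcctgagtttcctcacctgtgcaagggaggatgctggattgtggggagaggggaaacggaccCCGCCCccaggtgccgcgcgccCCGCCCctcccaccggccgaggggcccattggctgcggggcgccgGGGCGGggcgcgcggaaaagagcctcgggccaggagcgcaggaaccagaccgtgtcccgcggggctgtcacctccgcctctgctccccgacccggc
PLAU: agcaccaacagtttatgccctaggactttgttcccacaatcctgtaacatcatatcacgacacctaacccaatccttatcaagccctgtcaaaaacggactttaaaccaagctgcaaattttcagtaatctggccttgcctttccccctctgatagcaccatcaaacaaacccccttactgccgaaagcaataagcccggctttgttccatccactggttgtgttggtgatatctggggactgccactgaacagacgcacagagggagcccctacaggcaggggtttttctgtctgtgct
HTRA1: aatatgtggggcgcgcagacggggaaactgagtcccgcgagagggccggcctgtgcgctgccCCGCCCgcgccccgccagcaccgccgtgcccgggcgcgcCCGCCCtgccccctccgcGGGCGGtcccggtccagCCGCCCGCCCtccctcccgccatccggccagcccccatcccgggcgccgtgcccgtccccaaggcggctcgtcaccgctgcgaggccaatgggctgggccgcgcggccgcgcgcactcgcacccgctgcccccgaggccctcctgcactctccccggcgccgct

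The TIMP3 window held 5 SP1 motifs and 31 CpG dinucleotides, that of ADAM8 3 and 29, and that of HTRA1 5 and 45, 2 of its motifs overlapping. The PLAU window, with 5 CpG, held no SP1 motif. Only 1 window per gene was used, so any other start of these genes was not searched. Over all promoters the medians were 14 CpG and 58.3% G and C bases. The share of G and C bases was 72.7% in TIMP3, 74.0% in ADAM8, 80.7% in HTRA1 and 48.7% in PLAU. None of the 4 windows held an AP-1 motif (TGANTCA, either strand) or the TATA box (TATAAA, either strand). Of the 29 members with a window, 72.4% held an SP1 motif, 17.2% an AP-1 motif and 6.90% a TATA motif, against 44.6%, 7.76% and 12.0% of 27305 promoters of the same length. The motif shares were not matched for the share of G and C bases. A match is a run of letters and no evidence of binding.

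Of the 9 secreted MMPs none was called in either line. MMP1, the interstitial collagenase, read 52.2, 49.2 and 43.8 in docetaxel-resistant, 35.9, 24.9 and 30.2 in paclitaxel-resistant and 76.2, 34.6 and 45.0 in sensitive arrays. Its paclitaxel-resistant arrays were all below the docetaxel-resistant ones and overlapped the sensitive ones, of which replicate 1 was the highest, while on the normalized values they lay below the sensitive ones. Its difference from sensitive cells in the paclitaxel-resistant line was -0.59 ± 0.19 (adjusted p = 0.0501). MMP1 was called lower there with the replicate block (adjusted p = 0.0304), with array weights (0.0378), with the mean-variance trend (0.0480), in the fit on the mean of the probe sets of each gene (0.0471) and without sensitive replicate 2 (-0.75, adjusted p = 0.0255), so its call depended on the setting. MMP3 was called lower in the paclitaxel-resistant line without sensitive replicate 2 (-0.70, adjusted p = 0.0281). MMP2, the gelatinase that MMP14 activates, stood at -0.22 in the docetaxel-resistant (95% interval -0.72 to 0.28) and -0.24 in the paclitaxel-resistant line (-0.74 to 0.26). MMP9, the other gelatinase, stood at -0.36 (-0.74 to 0.02) and -0.33 (-0.71 to 0.05). For MMP19 the values were -0.44 (-0.78 to -0.10) and -0.29 (-0.62 to 0.05), the first with all 3 resistant arrays below the sensitive ones and called in 4 alternative settings (adjusted p = 0.0369 to 0.0499). The stromelysins MMP3 and MMP10, matrilysin MMP7, MMP11 and the collagenase MMP13 had group means no higher than 55.3, and MMP13 lay under 16 in every group.

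Of the 4 membrane-type MMPs, MMP14 was lower in both lines. MMP14, a membrane-anchored collagenase that also activates MMP2, read 323, 271 and 272 in docetaxel-resistant, 283, 241 and 305 in paclitaxel-resistant and 592, 705 and 698 in sensitive arrays. Both sets of resistant arrays lay wholly below the sensitive ones. It fell by 1.28 ± 0.19 in the docetaxel-resistant (adjusted p = 0.000689) and fell by 1.24 ± 0.19 in the paclitaxel-resistant line (adjusted p = 0.000796). That probe set gave the smallest fall of the 4 for this gene. Probe set 202828_s_at read 27.2, 28.2 and 30.2 in docetaxel-resistant, 26.1, 19.7 and 33.8 in paclitaxel-resistant and 242, 250.4 and 332 in sensitive arrays, differences of -2.80 and -2.83. Those of 202827_s_at were -2.94 and -2.81, and those of 217279_x_at -2.19 and -2.02. With the mean of the 4 probe sets MMP14 stood at -2.30 and -2.22. MMP15, MMP16 and MMP24 had group means of at most 37.5, and the difference farthest from 0 was -0.25, for MMP24 in the docetaxel-resistant line. None of these was called. The second probe set of MMP24, 213171_s_at, read 10.9, 25.3 and 20.3 in docetaxel-resistant, 12.4, 13.4 and 9.02 in paclitaxel-resistant and 16.9, 25.6 and 28.2 in sensitive arrays, and was called lower in the paclitaxel-resistant line, at -0.55 ± 0.18 (adjusted p = 0.0491).

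**Figure D2:**
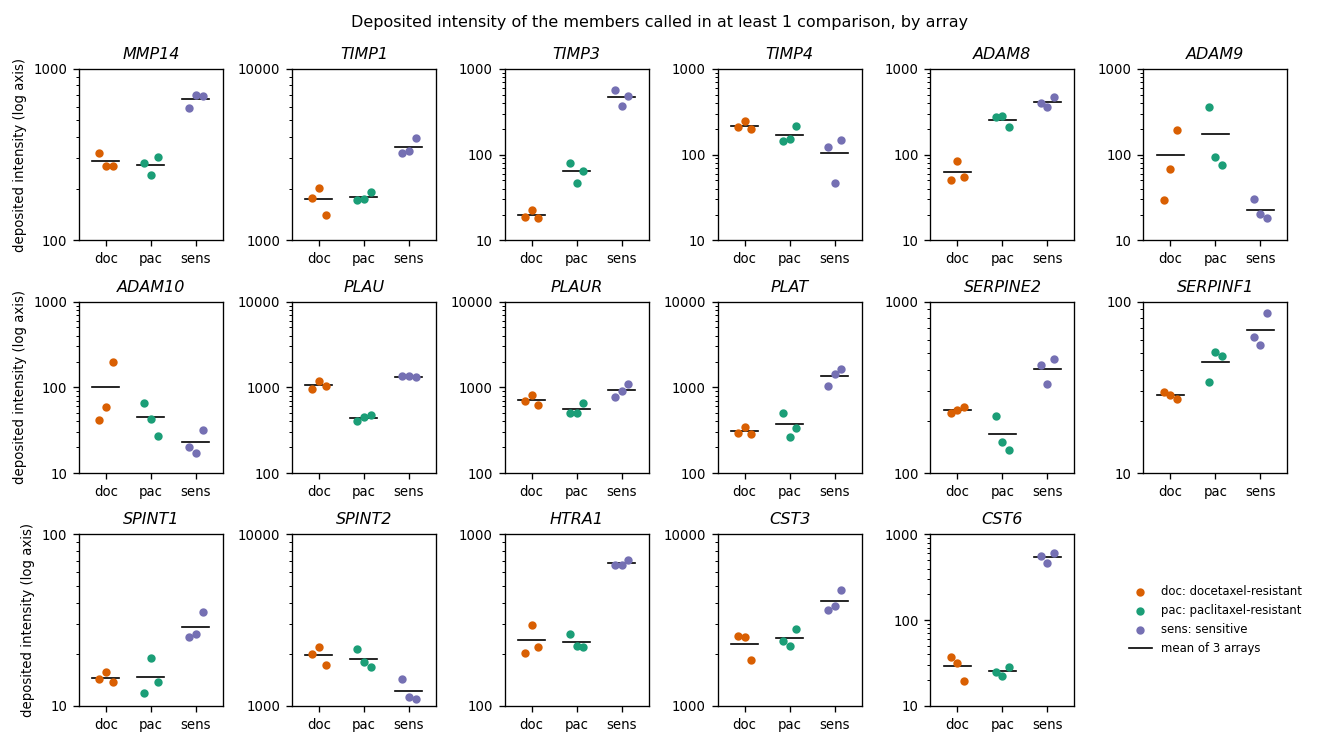
Deposited intensity (log axis) of the 17 members called in at least 1 comparison, with 1 point per array for docetaxel-resistant (orange), paclitaxel-resistant (green) and sensitive cells (purple), and a bar at the mean of 3 arrays. In TIMP3, ADAM8 and PLAU the resistant lines stand apart from each other, and in ADAM9 and ADAM10 single arrays lie far from the other 2 of their group.

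Among the MMP inhibitors, TIMP3 showed the largest difference of any member in the docetaxel-resistant line. TIMP3, the TIMP that binds to the matrix and also inhibits ADAM17, read 18.8, 22.7 and 18.2 in docetaxel-resistant, 80.6, 46.6 and 64.3 in paclitaxel-resistant and 569, 372 and 482 in sensitive arrays. No 2 groups overlapped, and the docetaxel-resistant arrays were the lowest. It fell by 3.82 ± 0.15 in the docetaxel-resistant (adjusted p = 2.24e-08) and fell by 2.67 ± 0.15 in the paclitaxel-resistant line (adjusted p = 6.67e-07), that is 14.1-fold and 6.37-fold on this scale. The other 3 probe sets were called lower too, at -3.78 to -3.40 in the docetaxel-resistant and -3.14 to -3.03 in the paclitaxel-resistant line. TIMP1, a secreted TIMP, read 1757, 2028 and 1408 in docetaxel-resistant, 1723, 1751 and 1908 in paclitaxel-resistant and 3243, 3307 and 3953 in sensitive arrays. It fell by 0.99 ± 0.17 in the docetaxel-resistant (adjusted p = 0.00181) and fell by 0.87 ± 0.17 in the paclitaxel-resistant line (adjusted p = 0.00371), with all resistant arrays below all sensitive ones.

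TIMP4 went the other way in the docetaxel-resistant line. It read 208, 244 and 199 there, 143, 151 and 216 in the paclitaxel-resistant line and 121, 46.6 and 148 in sensitive cells. The docetaxel-resistant arrays were above the sensitive ones and the paclitaxel-resistant arrays overlapped them. It rose by 0.92 ± 0.27 in the docetaxel-resistant line (adjusted p = 0.0347) and stood at 0.69 ± 0.27 in the paclitaxel-resistant line (adjusted p = 0.0989). The call of TIMP4 ended without docetaxel-resistant replicate 1 or 2, paclitaxel-resistant replicate 2 or sensitive replicate 2, the last of which moved it to 0.58, and with a pseudocount of 1 (adjusted p = 0.0756). TIMP2, which takes part with MMP14 in activating MMP2, stood at 0.02 (-0.32 to 0.36) and 0.26 (-0.08 to 0.60). BSG, or basigin, a surface glycoprotein that induces MMPs in neighbouring cells, stood at -0.18 (-0.64 to 0.28) and 0.19 (-0.27 to 0.65).

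RECK, an inhibitor of MMPs anchored in the membrane, was not called by the probe set with the highest mean, at 0.15 (-0.18 to 0.48) and 0.05 (-0.28 to 0.38). Its probe set 205407_at, a dim one, was called higher, at 0.55 ± 0.17 (adjusted p = 0.0430) and 0.78 ± 0.17 (adjusted p = 0.00741) over all 22215 probe sets, of which 17.7% and 18.6% were called. It read 17.0, 23.1 and 34.9 in docetaxel-resistant, 39.3, 29.8 and 22.9 in paclitaxel-resistant and 10.2, 8.19 and 13.0 in sensitive arrays, all resistant arrays above all sensitive ones. This probe set was picked out after its values were seen.

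**Figure D3:**
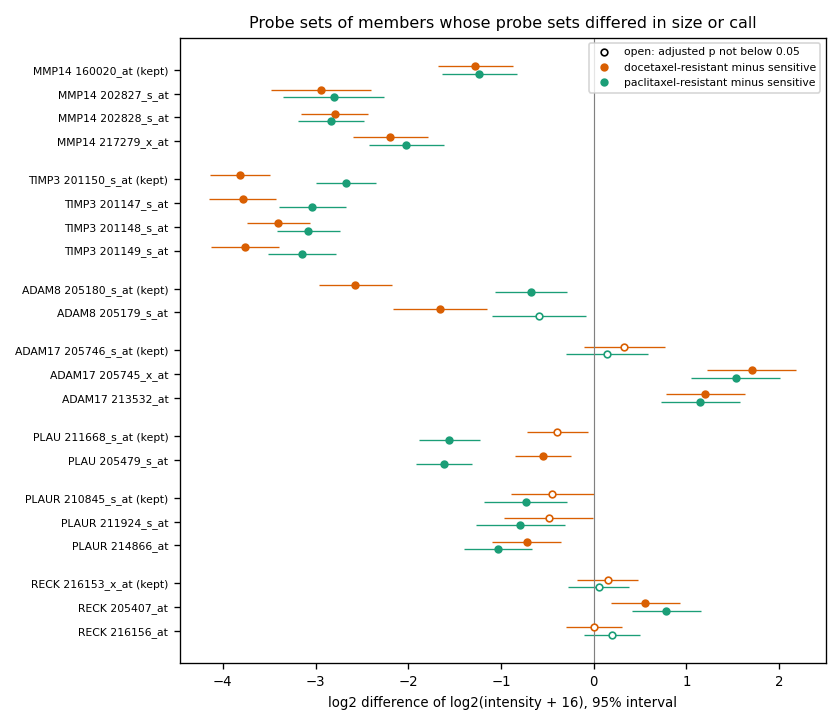
Log2 difference from sensitive cells (x axis, on log2(intensity + 16), with 95% intervals) of each probe set of 7 members, in the docetaxel-resistant (orange) and the paclitaxel-resistant line (green), with filled points past the test over all probe sets. MMP14 and TIMP3 fell in all of their probe sets, whereas ADAM17 and RECK were called higher only by probe sets with a lower mean than the one kept.

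ADAM8 was the member that differed most between the lines. This sheddase of leukocytes and tumour cells read 50.4, 84.4 and 54.6 in docetaxel-resistant, 273, 279.9 and 209.8 in paclitaxel-resistant and 403, 356 and 469 in sensitive arrays. The 3 groups did not overlap, and the paclitaxel-resistant arrays lay nearer to the sensitive ones. It fell by 2.57 ± 0.18 in the docetaxel-resistant (adjusted p = 3.10e-06) and fell by 0.68 ± 0.18 in the paclitaxel-resistant line (adjusted p = 0.0189). The call of ADAM8 in the paclitaxel-resistant line ended without paclitaxel-resistant replicate 1 or 3 or sensitive replicate 3 (adjusted p of ADAM8 up to 0.0751) and with a pseudocount of 1. The second probe set fell by 1.66 ± 0.23 in the docetaxel-resistant line and stood at -0.59 ± 0.23 in the paclitaxel-resistant line.

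ADAM9, ADAM10 and ADAM17 are widely expressed sheddases that cut many growth factor precursors and receptors. ADAM9 was called higher in the paclitaxel-resistant and ADAM10 in the docetaxel-resistant line, both with uneven replicates. ADAM9 read 29.8, 68.6 and 195 in docetaxel-resistant, 354, 94.1 and 75.1 in paclitaxel-resistant and 30.0, 20.1 and 18.1 in sensitive arrays. Docetaxel-resistant replicate 3 and paclitaxel-resistant replicate 1, which deviate together across genes, were the highest. ADAM9 rose by 1.98 ± 0.51 in the paclitaxel-resistant line (adjusted p = 0.0158) and stood at 1.14 ± 0.51 in the docetaxel-resistant line (adjusted p = 0.144). Without paclitaxel-resistant replicate 1 the first was 1.41 and not called (adjusted p = 0.0554), nor was it without sensitive replicate 3 or with a pseudocount of 64 (1.26). In the docetaxel-resistant line ADAM9 was called without docetaxel-resistant replicate 1 (1.61, adjusted p = 0.0453). Without the 3 arrays that deviate together the paclitaxel-resistant difference of ADAM9 was 1.51 (adjusted p = 0.00313).

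ADAM10 read 41.4, 58.6 and 200.2 in docetaxel-resistant, 66.4, 42.4 and 27.5 in paclitaxel-resistant and 20.3, 17.2 and 31.6 in sensitive arrays, with docetaxel-resistant replicate 3 far above its group. It rose by 1.21 ± 0.37 in the docetaxel-resistant line (adjusted p = 0.0379) and stood at 0.57 ± 0.37 in the paclitaxel-resistant line (adjusted p = 0.335). Its dimmer probe set 202604_x_at was called higher in the docetaxel-resistant line in the fit over all probe sets, at 0.96 ± 0.23 (adjusted p = 0.0121). That probe set read 27.5, 32.9 and 82.05 there and 13.5, 10.7 and 12.8 in sensitive arrays. Probe set 214895_s_at stood at 0.91 ± 0.31 there, not called (adjusted p = 0.0636). Both were picked out after their values were seen, and both were highest in docetaxel-resistant replicate 3. The rise of ADAM10 lost its call in 11 of 19 alternative settings. It was 0.68 without docetaxel-resistant replicate 3 (adjusted p = 0.0886), 0.63 without the 3 arrays that deviate together, 0.71 with a pseudocount of 64, and not called with the replicate block (adjusted p = 0.0516).

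ADAM17, the sheddase of tumour necrosis factor, was not called by its kept probe set, which stood at 0.33 (-0.11 to 0.78) and 0.14 (-0.30 to 0.59). Without sensitive replicate 1 or 2 the highest mean passed to another of its probe sets, 205745_x_at, and ADAM17 was then called at 1.43 and 1.26 or at 1.76 and 1.58. Both of its other probe sets were called higher in both lines, as seen after the fit. Probe set 213532_at read 128, 130.0 and 165 in docetaxel-resistant, 169, 108 and 101 in paclitaxel-resistant and 60.6, 28.1 and 50.5 in sensitive arrays, all resistant arrays above all sensitive ones. It rose by 1.20 ± 0.19 (adjusted p = 0.00131) and 1.15 ± 0.19 (adjusted p = 0.00159). The first, 205745_x_at, rose by 1.71 ± 0.22 and 1.53 ± 0.22, and the mean of the 3 probe sets of ADAM17 by 1.08 and 0.94. ADAM15 stood at -0.06 (-0.54 to 0.43) and -0.02 (-0.50 to 0.47), and ADAM19 at -0.46 (-0.87 to -0.05) and -0.53 (-0.95 to -0.12), neither called. The resistant arrays of ADAM19 overlapped the sensitive ones in deposited intensity but lay below them on the normalized values, and it was called in the paclitaxel-resistant line over genes at or above the median level (adjusted p = 0.0465) and without paclitaxel-resistant replicate 3 (-0.67, adjusted p = 0.0484). ADAM12, ADAM28, ADAMTS1 and ADAMTS3 had differences between -0.37 and 0.14, and the last 2 lay under 16 in every group.

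**Figure D4:**
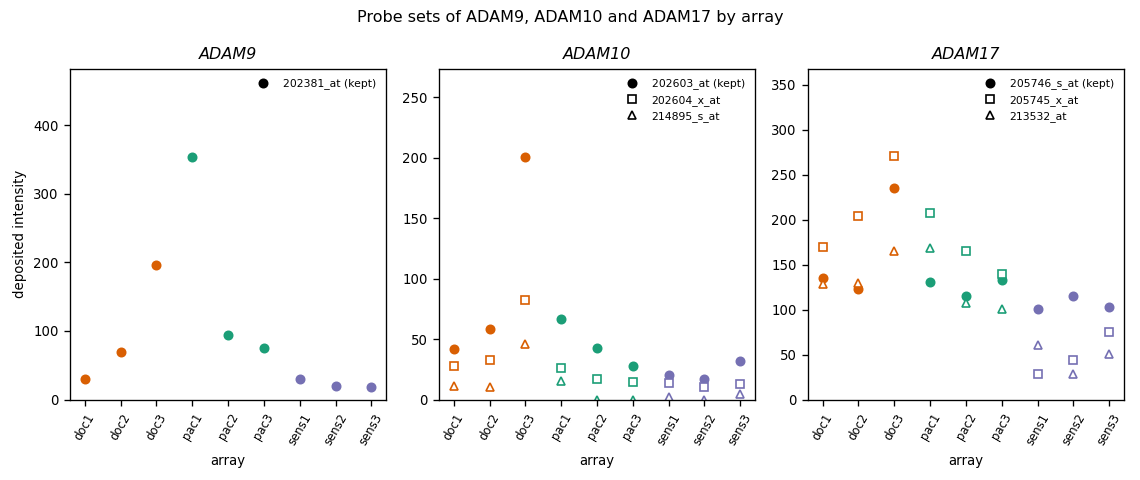
Deposited intensity (linear axis from 0) of the probe sets of ADAM9, ADAM10 and ADAM17 in each array, docetaxel-resistant (orange), paclitaxel-resistant (green) and sensitive (purple), with the probe set kept for the gene filled. Docetaxel-resistant replicate 3 stands out in ADAM10, paclitaxel-resistant replicate 1 in ADAM9, and the open symbols of ADAM17 lie higher in all 6 resistant arrays than in sensitive ones.

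Of the 2 plasminogen activators and their receptor, PLAT fell in both lines, and PLAU and PLAUR were called lower in the paclitaxel-resistant line. PLAT, tissue-type plasminogen activator, read 298, 349.5 and 289 in docetaxel-resistant, 508, 267 and 338 in paclitaxel-resistant and 1039, 1413 and 1637 in sensitive arrays, with no overlap between resistant and sensitive arrays. It fell by 2.14 ± 0.23 in the docetaxel-resistant (adjusted p = 9.88e-05) and fell by 1.84 ± 0.23 in the paclitaxel-resistant line (adjusted p = 0.000254). PLAU, or urokinase, read 945, 1187 and 1026 in docetaxel-resistant, 405, 446 and 481 in paclitaxel-resistant and 1340.5, 1341 and 1326 in sensitive arrays. The paclitaxel-resistant arrays were all below the docetaxel-resistant ones, which were all below the sensitive ones. PLAU fell by 1.56 ± 0.15 in the paclitaxel-resistant line (adjusted p = 3.42e-05), that is 2.95-fold, and stood at -0.39 ± 0.15 in the docetaxel-resistant line (adjusted p = 0.0876), where PLAU was called with a pseudocount of 64 (adjusted p = 0.0447), with median centring (0.0366) and with the mean of its probe sets (0.0198). Its second probe set, 205479_s_at, was called lower in the docetaxel-resistant line as well, at -0.55 ± 0.14 (adjusted p = 0.0165).

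PLAUR, the receptor that holds urokinase at the cell surface, read 688, 808 and 631 in docetaxel-resistant, 508, 496 and 656 in paclitaxel-resistant and 769.8, 909 and 1101 in sensitive arrays. It fell by 0.73 ± 0.20 in the paclitaxel-resistant line (adjusted p = 0.0244), whose arrays were below the sensitive ones, and stood at -0.45 ± 0.20 in the docetaxel-resistant line (adjusted p = 0.157), whose arrays overlapped them and where PLAUR was called without sensitive replicate 1 (-0.65, adjusted p = 0.0304). The call in the paclitaxel-resistant line ended without any 1 of paclitaxel-resistant replicates 1 and 2 and sensitive replicates 2 and 3 (adjusted p of PLAUR up to 0.0952) and with a pseudocount of 1. The probe set 214866_at was called lower in both lines, at -0.72 ± 0.17 and -1.03 ± 0.17.

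Of the 4 serpins, SERPINE2 and SERPINF1 fell in both lines. SERPINE2, or protease nexin 1, which inhibits urokinase and thrombin, read 225, 234 and 244 in docetaxel-resistant, 216, 153 and 136 in paclitaxel-resistant and 426, 329 and 463 in sensitive arrays. It fell by 0.87 ± 0.14 in the docetaxel-resistant (adjusted p = 0.00155) and fell by 1.21 ± 0.14 in the paclitaxel-resistant line (adjusted p = 0.000172), with all resistant arrays below all sensitive ones. SERPINF1, a secreted serpin that does not inhibit proteases and is known for blocking vessel growth, read 29.7, 28.5 and 27.0 in docetaxel-resistant, 34.1, 51.0 and 48.3 in paclitaxel-resistant and 62.2, 55.9 and 86.3 in sensitive arrays. The 3 groups did not overlap. It fell by 1.05 ± 0.16 in the docetaxel-resistant (adjusted p = 0.000852) and fell by 0.56 ± 0.16 in the paclitaxel-resistant line (adjusted p = 0.0248). The second call of SERPINF1 ended without paclitaxel-resistant replicate 1 (-0.40), without sensitive replicate 3, without the 3 arrays that deviate together (-0.45) and without normalization between arrays. With a pseudocount of 64 the differences of SERPINF1 were -0.59 and -0.34. SERPINB5, or maspin, and SERPINI1, or neuroserpin, which inhibits tissue-type plasminogen activator, had group means of at most 17.3 and were not called.

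The 2 Kunitz-type inhibitors of membrane serine proteases moved in opposite directions. SPINT2, which inhibits matriptase and hepsin, was the 1 member higher in both lines. It read 2018, 2217 and 1724 in docetaxel-resistant, 2139, 1805 and 1678 in paclitaxel-resistant and 1443, 1122 and 1092 in sensitive arrays, all resistant arrays above all sensitive ones. It rose by 0.65 ± 0.15 (adjusted p = 0.00876) and by 0.60 ± 0.15 (adjusted p = 0.0134), the second call of SPINT2 ending without paclitaxel-resistant replicate 1 (adjusted p = 0.0562). SPINT1, the related inhibitor of matriptase, read 14.3, 15.8 and 13.9 in docetaxel-resistant, 11.9, 18.9 and 13.7 in paclitaxel-resistant and 25.4, 26.1 and 35.3 in sensitive arrays, a dim probe set throughout. It fell by 0.62 ± 0.14 in the docetaxel-resistant (adjusted p = 0.00777) and fell by 0.60 ± 0.14 in the paclitaxel-resistant line (adjusted p = 0.00946). The size of the SPINT1 fall followed the pseudocount, at -1.05 and -1.01 with 1, and -0.27 and -0.26 with 64. The proteases themselves, matriptase (ST14) and hepsin (HPN), were not called, with differences of 0.11 and 0.26 for ST14 and -0.03 and -0.05 for HPN.

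Of the 3 secreted serine proteases HTRA1 fell in both lines. HTRA1, which cuts matrix proteins, read 204, 298 and 221 in docetaxel-resistant, 263, 223 and 221 in paclitaxel-resistant and 668, 660.0 and 711 in sensitive arrays. The resistant arrays of both lines overlapped each other and lay below the sensitive ones. It fell by 1.57 ± 0.15 in the docetaxel-resistant (adjusted p = 4.85e-05) and fell by 1.48 ± 0.15 in the paclitaxel-resistant line (adjusted p = 6.28e-05), 2.97-fold and 2.79-fold. The kallikreins were not called, KLK6 standing at -0.06 (-0.53 to 0.42) and 0.05 (-0.43 to 0.52) and KLK10 at -0.18 and -0.19.

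Of the 2 cystatins, inhibitors of cysteine proteases such as cathepsins, CST6 fell in both lines and CST3 was called lower in the docetaxel-resistant line. CST6, or cystatin E/M, which also inhibits legumain, read 37.5, 31.3 and 19.4 in docetaxel-resistant, 24.8, 22.4 and 28.6 in paclitaxel-resistant and 560.4, 461 and 612 in sensitive arrays. Both resistant lines were close to the low end of the scale and far below the sensitive arrays. It fell by 3.70 ± 0.17 in the docetaxel-resistant (adjusted p = 8.03e-08) and fell by 3.79 ± 0.17 in the paclitaxel-resistant line (adjusted p = 8.50e-08), 13.0-fold and 13.8-fold on this scale. CST3, or cystatin C, read 2557, 2516 and 1849 in docetaxel-resistant, 2397, 2227 and 2825 in paclitaxel-resistant and 3647, 3832 and 4713 in sensitive arrays, all resistant arrays below all sensitive ones. It fell by 0.74 ± 0.19 in the docetaxel-resistant line (adjusted p = 0.0175) and stood at -0.56 ± 0.19 in the paclitaxel-resistant line (adjusted p = 0.0583). The call of CST3 ended without docetaxel-resistant replicate 3 or sensitive replicate 2 or 3 (adjusted p up to 0.0725). In the paclitaxel-resistant line CST3 was called with median centring (-0.79, adjusted p = 0.00754), without normalization between arrays (-0.71, 0.0173), with the mean-variance trend (0.0310), over genes at or above the median level (0.0399), without the 3 arrays that deviate together (-0.64, 0.0373) and without any 1 of docetaxel-resistant replicate 3, paclitaxel-resistant replicate 3 and sensitive replicate 1 (0.0321 to 0.0422).

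Set against the docetaxel-resistant line, 2 members were higher and 1 lower in the paclitaxel-resistant line, 6.67% of the members where 1.96% of all genes were called (0.978% higher and 0.986% lower). Of the members' 77 probe sets 6 were called, against 1.60% of all probe sets, with TIMP3 and ADAM8 each counted more than once among them. Drug, dose and line differ together here (7 nM paclitaxel against 2 nM docetaxel). ADAM8 averaged 254 ± 38.8 in paclitaxel- and 63.1 ± 18.5 in docetaxel-resistant arrays (SD, n = 3 each) and was higher by 1.89 ± 0.18 (adjusted p = 0.000259), that is 3.71-fold. TIMP3 averaged 63.8 ± 17.0 and 19.9 ± 2.44 and was higher by 1.15 ± 0.15 (adjusted p = 0.00235). The difference of TIMP3 was 0.71 over the mean of its 4 probe sets and 0.60 with a pseudocount of 64, both called. The kept probe set gave the largest difference of the 4 for TIMP3. Of the others 201147_s_at was called at 0.75 (adjusted p = 0.0461), while 201149_s_at at 0.62 (adjusted p = 0.102) and 201148_s_at at 0.32 (adjusted p = 0.452) were not. PLAU averaged 444 ± 37.9 in paclitaxel- and 1053 ± 123 in docetaxel-resistant arrays, with a difference of -1.17 ± 0.15 (adjusted p = 0.00222). In all 3 genes the arrays of the 2 lines did not overlap, as in 6 of 45 members (13.3%) against 20.4% of all genes. For members called lower in both lines the between-line difference was within -0.37 to 0.45 in MMP14, -0.24 to 0.43 in HTRA1, -0.45 to 0.27 in CST6, -0.20 to 0.81 in PLAT and -0.25 to 0.50 in TIMP1 (95% intervals), none of them called. Also not called, though their arrays did not overlap, were SERPINF1 at 0.48 (0.13 to 0.83) and SERPINE2 at -0.35 (-0.66 to -0.03). SPINT1 stood at 0.03 (-0.28 to 0.33). With array weights SERPINF1 was called higher in the paclitaxel-resistant line, at 0.51 (adjusted p = 0.0373).

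Beyond the members, 108 of 121 other listed genes were measured, most of them proteases or inhibitors and some, such as F3, related proteins. In the docetaxel-resistant line 4 rose and 11 fell, and in the paclitaxel-resistant line 6 rose and 12 fell, 13.9% and 16.7% of them called, below the shares of all genes. Of 8 other MMPs and 18 other ADAMs and ADAMTSs none was called in either line by limma, with 1 and 2 of the other MMPs, and 1 and 0 of the other ADAMs and ADAMTSs, at an unadjusted p below 0.05 in the docetaxel- and the paclitaxel-resistant line.

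A list of 16 genes held cathepsins and legumain, most of them lysosomal proteases, some of which also cut matrix when secreted. Of these 16, 1 rose and 4 fell in the docetaxel-resistant line and 2 rose and 6 fell in the paclitaxel-resistant line. CTSF read 7.39, 1.58 and 8.75 in docetaxel-resistant, 8.98, 7.97 and 6.15 in paclitaxel-resistant and 249, 215 and 208 in sensitive arrays, at the floor of the scale in both resistant lines. It fell, with differences of -3.53 ± 0.16 and -3.38 ± 0.16, which were -5.35 and -4.73 with a pseudocount of 1 and -2.09 and -2.04 with 64. CTSD, the lysosomal aspartic protease, fell, with differences of -1.18 ± 0.17 and -0.86 ± 0.17, and CTSL fell, with differences of -0.49 ± 0.14 and -0.66 ± 0.14, the first of these calls of CTSL ending in 6 of 19 alternative settings. CTSH rose by 1.00 ± 0.13 and 0.47 ± 0.13. CTSC, which activates leukocyte serine proteases, fell by 1.03 ± 0.18 in the paclitaxel-resistant line (adjusted p = 0.00186) and stood at 0.19 ± 0.18 in the docetaxel-resistant line.

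A further list held 31 genes, most of them serine proteases or surface peptidases. Of these, 2 rose and 2 fell in the docetaxel-resistant line and 2 rose and 1 fell in the paclitaxel-resistant line. F3, or tissue factor, which starts coagulation, rose by 1.82 ± 0.16 and 1.00 ± 0.16. PRSS3, a trypsinogen, rose by 1.55 ± 0.19 and 1.47 ± 0.19, its probe set being open to signal from closely related trypsinogen genes. The mitochondrial protease HTRA2 fell, with differences of -1.43 ± 0.15 and -1.04 ± 0.15. BMP1, the procollagen C-proteinase, fell by 0.83 ± 0.17 in the docetaxel-resistant line (adjusted p = 0.00519). The value of BMP1 was -0.38 with the mean of its 4 probe sets, and its call ended without normalization between arrays (-0.35), without docetaxel-resistant replicate 1 (-0.43) and without sensitive replicate 2 (-0.51).

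Of 35 measured other inhibitors, 1 rose and 5 fell in the docetaxel-resistant line and 2 rose and 5 fell in the paclitaxel-resistant line. SERPIND1, or heparin cofactor II, fell, with differences of -2.10 ± 0.15 and -1.71 ± 0.15, and TFPI2, a Kunitz-type inhibitor of plasmin deposited in the matrix, fell too, with differences of -1.31 ± 0.18 and -1.40 ± 0.18. The SERPIND1 values were -3.37 and -2.44 with a pseudocount of 1 and -1.06 and -0.92 with 64. SERPINA1, or alpha-1-antitrypsin, fell, with differences of -3.55 ± 0.20 and -2.44 ± 0.20, but its remaining probe set without _x_at and _s_at names was at 0.18 and -0.20, not called. SERPINH1, the collagen chaperone HSP47, fell by 0.93 ± 0.17 in the paclitaxel-resistant line (adjusted p = 0.00213) and stood at -0.25 ± 0.17 in the docetaxel-resistant line. SERPINB7 read 10.1, 19.5 and 18.6 in docetaxel-resistant, 3.50, 0.72 and 0.00 in paclitaxel-resistant and 1.89, 0.00 and 1.82 in sensitive arrays. It rose by 0.86 ± 0.15 in the docetaxel-resistant line, a size that followed the pseudocount (2.99 with 1 and 0.28 with 64).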

How the data were processed

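RNA of 9 passages was hybridised to HU133A arrays, 3 per group. The authors deposited 1 table of linear probe set intensity values, made with Affymetrix Expression Console 1.1.2 and PLIER per the submitters' processing notes; the normalization used there is not given in the sources used here. Arrays carry no read depth, so their number limits the precision. Of 22283 probe sets 68 controls were left out, and 19065 had 1 gene in the platform annotation, 19053 of them matched to RefSeq by gene identifier. Values were taken as log2(intensity + 16), quantile normalized, and reduced to the probe set with the highest mean per gene (11964 genes). One limma 3-group fit, version 3.58.1, gave all comparisons, with Benjamini-Hochberg adjustment over all genes and a threshold of 0.05. The procedure was tested on simulated data. Every member was described; of each list of other protease genes, up to 4 called genes a comparison with the smallest adjusted p could be named. The members and lists were chosen with earlier results of these data known. Same-numbered arrays did not deviate together as a rule (correlations -0.45 to 0.34, above 0.1 in 3 of 9 pairs). Of the arrays, 0 correlated best with their own number in both other groups, so the numbers were not taken as pairs. Alternatives were 2 other pseudocounts, other scalings, filters and probe set rules, a variance trend, array weights, a replicate block and leaving out each array. Leaving out 3 arrays together was added after seeing the data.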

Additional observations from a re-analysis of the deposited data

Results flagged for a closer look

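Between the 2 resistant lines, 3 of 45 members (6.67%) and 8 of the 108 other listed genes (7.41%) differed by limma's test of that difference, against 1.96% of all genes. Among the members, the paclitaxel-resistant minus docetaxel-resistant difference was 1.89 for ADAM8, 1.15 for TIMP3 and -1.17 for PLAU. ADAM8 and TIMP3 were lower than in sensitive cells in both lines, and more so in the docetaxel-resistant line.

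Among the other listed genes CTSC differed by -1.22 and F3, or tissue factor, by -0.82. CTSC read 265, 218 and 201 in paclitaxel-resistant and 502, 567 and 675 in docetaxel-resistant arrays. Among the other inhibitors SERPINB1 differed by 0.87, SERPINA1 by 1.11 and SERPINB7 by -0.83. CST4, a salivary cystatin, differed by 1.52, and its probe set may take up signal of near-identical cystatin genes. CST4 read 3246, 2461 and 2191 in paclitaxel-resistant and 1100.2, 1181 and 649 in docetaxel-resistant arrays. CST1 and CST2, of the same gene cluster and named here after their values were seen, differed by 1.14 and 1.34. Of the between-line calls of CTSC, F3, CST4, SERPINB1, SERPINA1 and SERPINB7, 4 ended without the 3 arrays that deviate together. These stood at -0.76 for F3 (adjusted p = 0.114), 0.75 for SERPINB1 (0.0847), 0.99 for SERPINA1 (0.0886) and -0.85 for SERPINB7 (0.0831). They ended in other settings too.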

How the results depend on the processing

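Over 20 alternatives, the 31 called differences of members gave 603 values, of which 567 kept their call, 36 lost it and 0 reversed; 23 of the 31 kept it in every alternative that could be fitted. Leaving out 1 array gave 12 to 15 members called in the docetaxel comparison, 9 to 16 in the paclitaxel comparison and 3 to 3 between the lines. The 9 came without paclitaxel-resistant replicate 1. With the replicate block 13, 15 and 3 members were called, and without the 3 arrays that deviate together 13, 14 and 3. Without probe sets named _x_at or _s_at, 32 members remained and limma called 0 between the lines, with 3 at an unadjusted p below 0.05; TIMP3, ADAM8 and PLAU have only _s_at probe sets and were not among the 32. Under the same rule SERPINA1 reversed, to 0.18 in the docetaxel-resistant line and -0.38 between the lines, on another probe set. Dim probe sets (18 uncalled members had every group mean under 64) limit what could be seen.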
